A study of Mus musculus with 12 samples.

Results

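The transcripts described here encode the N6-methyladenosine (m6A) writer complex and the m6A demethylases, measured in RNA immunoprecipitation followed by sequencing (RIP-seq) of mouse neural tissue. They are 10 genes, chosen by symbol of their Ensembl identifier, of 52550 genes in the count table. All 10 passed the filter on low counts. Antibodies against Ythdf1 or Ythdf2, cytoplasmic proteins that bind m6A in mRNA, were used on dissociated tissue of wild-type C57BL/6 mice, and the recovered RNA was sequenced beside input RNA. The 6 groups of 2 libraries each were the anti-Ythdf1 immunoprecipitate (IP), the anti-Ythdf2 IP and the input of retina at postnatal day 0 (P0), and the same 3 of cortex at embryonic day 12.5 (E12.5). The comparison asks which of these transcripts were recovered with each antibody relative to the input of the same tissue.

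m6A is written on nascent mRNA by a complex whose catalytic core is Mettl3 with its partner Mettl14, and which further subunits bring to RNA. It can be removed by the demethylases Alkbh5 and Fto. Readers such as Ythdf1 and Ythdf2 bind the mark in the cytoplasm and act on translation and decay of the mRNA, and the mark is known to time neurogenesis in the embryonic cortex. A transcript that encodes part of this machinery can itself carry m6A and be bound by a reader.

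The core GGACT of the m6A consensus motif was searched on the sense strand of 1 principal GENCODE M21 transcript per gene (GRCm38), where 92.4% of 14172 protein-coding genes tested held at least 1 match and 60.9% held 1 in the 3′ UTR. All 10 members held a match, and 7 held 1 in the 3′ UTR. Alkbh5 had 10 matches, 8 of them in a 3′ UTR of 4097 bases, which gave 1.75 matches per kilobase of transcript, against a median of 1.05 over all genes. Wtap (2.43) and Mettl3 (1.98) had more matches per kilobase than Alkbh5. Rbm15 had 2 matches (0.46 per kilobase) and none in its 3′ UTR. For each of the 5 transcripts that differed most between IP and input in the retina, 1 match is given, with GGACT in capitals. It is the match nearest to the stop codon among those whose window of 29 bases lies within 1 exon. A match is a description of the letters and not a measured site.
Alkbh5, 3′ UTR, plus strand, chr11:60554421-60554449: tgtgccctcttgGGACTctggctaatcct
Rbm15b, coding sequence, minus strand, chr9:106885317-106885345: ctttttggaaggGGACTggaccagcctca
Rbm15, coding sequence, minus strand, chr3:107331178-107331206: cagaggtgatcgGGACTtgcccagcagca
Mettl14, 3′ UTR, minus strand, chr3:123369251-123369279: accccaccccagGGACTggcagttgtcac
Zc3h13, coding sequence, plus strand, chr14:75339421-75339449: atgtttcagacgGGACTctgcaatccgga

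Library totals ran from 19530226 to 40515980 counts, and protein-coding genes took 8.37% to 41.1% of them in 11 libraries. The library labelled cortex input replicate 1 went against its label. Protein-coding genes took 4.65% of its counts, its summed mature brain markers were 13170 CPM of protein-coding counts against 86.3 to 272 in the other libraries, its neural progenitor markers were 241 CPM against 4419 to 5996 in the other cortex libraries, and its microglial markers were 1162 CPM. Its replicate correlation over protein-coding genes (Spearman) was 0.800, against 0.951 to 0.974 within the other 5 groups. The main results are therefore given with all 12 libraries and without that library, and, within the retina, also with its 6 libraries alone. Retina markers summed to 1610 to 2277 CPM in all retina libraries. The labels do not say that replicates came from separate animals, so p-values measure the spread between these samples only. In bulk tissue, fewer cells of a type and less RNA per cell cannot be told apart. Levels are CPM, read counts relative to library size, normalised by the trimmed mean of M values (TMM), and members had 13 to 12233 counts in a library.

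Alkbh5 (chromosome 11, 60536381 to 60558512), a nuclear demethylase that removes m6A from mRNA, was the member with the largest rise in the retina Ythdf2 IPs. It had 68.6 and 64.5 CPM in the retina Ythdf2 IPs, against 17 and 12.9 CPM in the retina inputs. Both IPs were above both inputs, and the log2 fold change was 2.16 (SE 0.46, adjusted p = 0.036, edgeR quasi-likelihood test with Benjamini-Hochberg adjustment over 18458 genes). Alkbh5 was the only 1 of the 10 members called in that comparison, where 2.04% of all genes tested were called and 0.282% were called higher. Without cortex input replicate 1 the log2 fold change was again 2.16 (SE 0.34, adjusted p = 0.00088), and with the 6 retina libraries alone it was 2.14 (SE 0.29, adjusted p = 0.00021). The call was lost when any 1 library other than a cortex input was left out. The adjusted p was then 0.334 and 0.265 without retina Ythdf2 IP replicate 1 and 2, 0.156 and 0.151 without retina input replicate 1 and 2, 0.0913 and 0.0914 without retina Ythdf1 IP replicate 1 and 2, and 0.0532 to 0.0808 without a cortex IP. With the replicate number as a block it was 0.0860, and 0.00103 with that block and without cortex input replicate 1.

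In the retina Ythdf1 IPs Alkbh5 had 36.9 and 34.3 CPM, against the same 17 and 12.9 CPM in the inputs. These IPs also lay above both inputs, with a log2 change of 1.25 (SE 0.45, adjusted p = 0.0974 with 12 libraries). It was called without cortex input replicate 1 (SE 0.33, adjusted p = 0.0109) and in the retina alone (1.13, SE 0.29, adjusted p = 0.00803). In the cortex, Alkbh5 had 24.7 and 13.5 CPM in the Ythdf1 IPs, 22.6 and 21.2 CPM in the Ythdf2 IPs, and 9.84 and 12.9 CPM in the inputs. All 4 cortex IPs were above both inputs, one of them narrowly, and the log2 fold changes of 0.74 (SE 0.44, adjusted p = 0.455) with anti-Ythdf1 and 0.94 (SE 0.44, adjusted p = 0.274) with anti-Ythdf2 did not pass the test. They were 0.57 (SE 0.41, adjusted p = 0.509) and 0.77 (SE 0.41, adjusted p = 0.294) without cortex input replicate 1.

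Fto (chromosome 8, 91313525 to 91668439), the other demethylase, which also acts on m6Am beside the mRNA cap, was called in none of the 3 fits in either tissue. It had 27.4 and 25.4 CPM in the retina Ythdf1 IPs and 20.6 and 24.8 CPM in the retina Ythdf2 IPs, against 24.6 and 14 CPM in the retina inputs. The Ythdf1 IPs were just above the higher input and the Ythdf2 IPs overlapped the inputs, with log2 fold changes of 0.45 (SE 0.46, adjusted p = 0.567) and 0.23 (SE 0.46, adjusted p = 0.88). In the cortex it had 15.7 and 15.5 CPM in the Ythdf1 IPs, 15.6 and 11.4 CPM in the Ythdf2 IPs, and 11.3 and 21.9 CPM in the inputs, and all 4 IPs fell between the inputs. Its cortex log2 fold changes were -0.10 with anti-Ythdf1 and -0.30 with anti-Ythdf2, and without cortex input replicate 1 they were -0.49 (adjusted p = 0.566) and -0.70 (adjusted p = 0.308).

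The counts of both demethylases within 1 library need no scaling between libraries. There were 1.34 and 1.35 Alkbh5 counts per Fto count in the retina Ythdf1 IPs and 3.33 and 2.60 in the retina Ythdf2 IPs, against 0.69 and 0.917 in the retina inputs. The retina groups did not overlap. In the cortex the ratio was 1.57 and 0.867 in the Ythdf1 IPs, 1.45 and 1.86 in the Ythdf2 IPs, and 0.874 and 0.588 in the inputs, where only the Ythdf1 IPs overlapped the inputs.

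**Figure D1:**
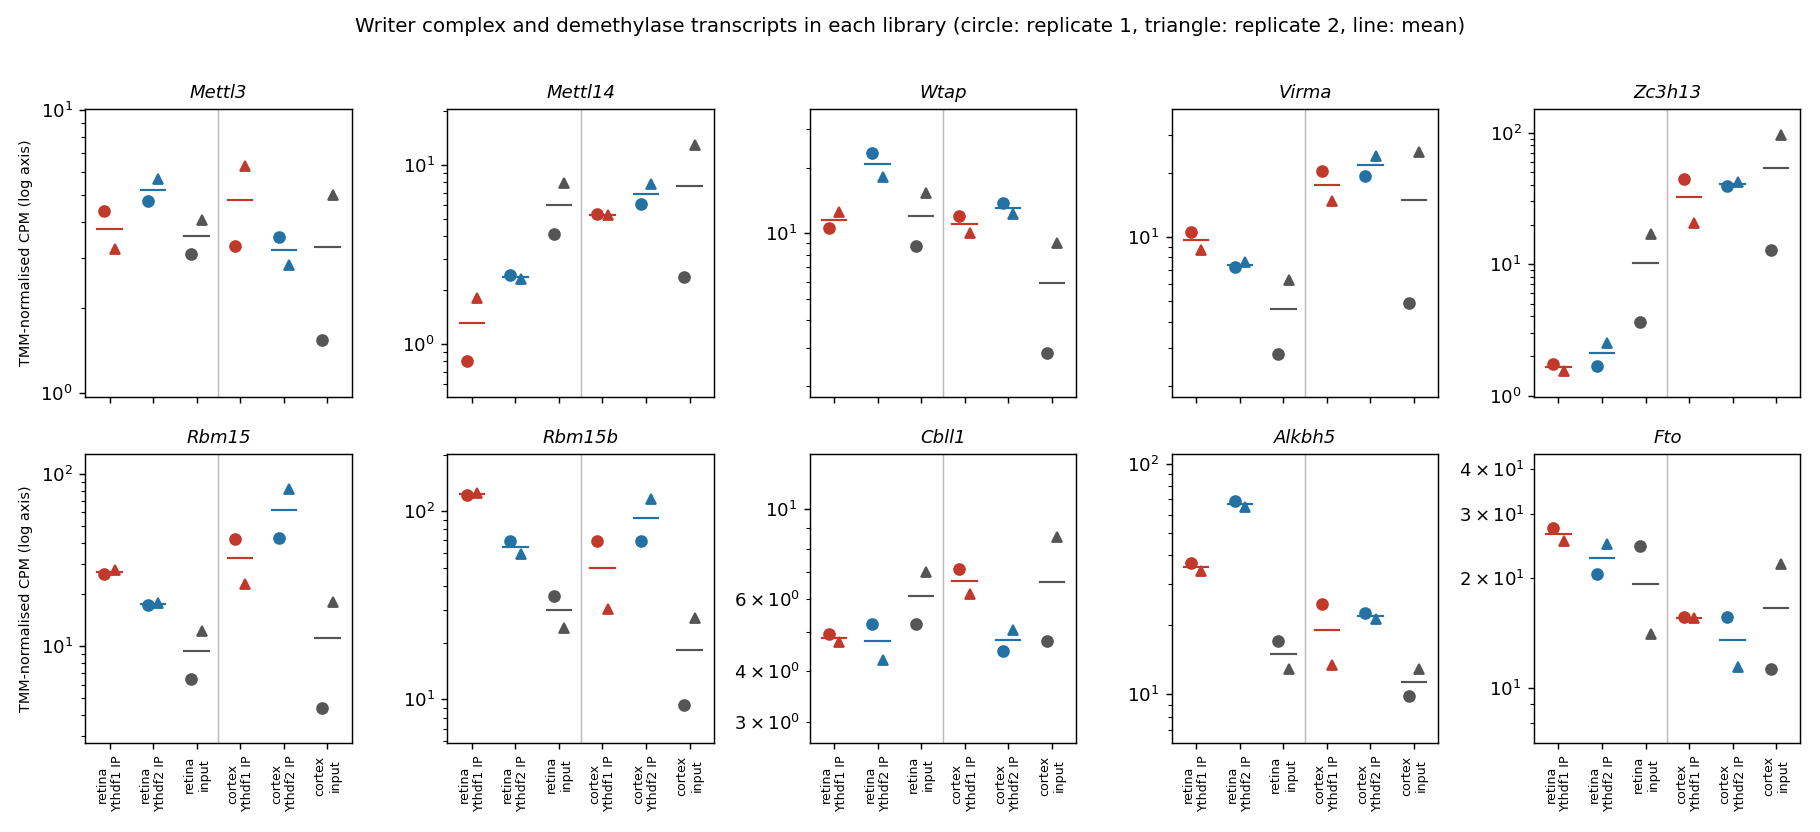
TMM-normalised CPM (log axis, a scale of its own per panel) of the 10 transcripts in each of the 12 libraries, by group; circles are replicate 1, triangles replicate 2 and lines the group mean. Alkbh5 stands at 64.5 to 68.6 CPM in the retina Ythdf2 IPs, against 12.9 and 17 CPM in the retina inputs, and the cortex input replicates are wide apart for most members.

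The catalytic pair differed from each other in the retina. Mettl14 (chromosome 3, 123368297 to 123386108), the RNA-binding partner of Mettl3, had 0.804 and 1.81 CPM in the retina Ythdf1 IPs and 2.43 and 2.31 CPM in the retina Ythdf2 IPs, against 4.10 and 7.88 CPM in the retina inputs. All 4 IPs lay below both inputs. The log2 fold change was -2.20 with anti-Ythdf1 (SE 0.71, adjusted p = 0.0765 with 12 libraries). It was called without cortex input replicate 1 (SE 0.44, adjusted p = 0.00195) and in the retina alone (-2.30, SE 0.47, adjusted p = 0.00217). With anti-Ythdf2 it was -1.34 (SE 0.70, adjusted p = 0.366), called without cortex input replicate 1 (adjusted p = 0.0468), and neither with the replicate block added to that fit (adjusted p = 0.0570) nor in the retina alone (adjusted p = 0.0617). When retina input replicate 2 was left out of the 12 libraries, these were -1.65 (adjusted p = 0.295) and -0.79 (adjusted p = 0.717).

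Mettl3 (chromosome 14, 52294841 to 52305128), the methyltransferase itself, had 4.38 and 3.21 CPM in the retina Ythdf1 IPs and 4.75 and 5.68 CPM in the retina Ythdf2 IPs, against 3.09 and 4.08 CPM in the retina inputs. The Ythdf2 IPs were above both inputs and the Ythdf1 IPs overlapped them, and neither log2 fold change, 0.08 (SE 0.56, adjusted p = 0.984) with anti-Ythdf1 and 0.54 (SE 0.56, adjusted p = 0.69) with anti-Ythdf2, passed the test. Mettl3 overlaps Tox4 on the opposite strand over 1561 bases, and the strand setting of the counting is not given in the sources used here, so that reads from this stretch are uncertain in origin. Within a library there were 0.184 and 0.565 Mettl14 counts per Mettl3 count in the retina Ythdf1 IPs and 0.511 and 0.407 in the retina Ythdf2 IPs, against 1.33 and 1.93 in the retina inputs. Mettl14 counts thus exceeded Mettl3 counts in both retina inputs and in neither antibody's retina IPs.

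In the cortex the values of the pair overlapped those of the inputs. Mettl14 had 5.30 and 5.27 CPM in the Ythdf1 IPs, 6.03 and 7.79 CPM in the Ythdf2 IPs, and 2.37 and 12.9 CPM in the inputs. Mettl3 had 3.29 and 6.30 CPM in the Ythdf1 IPs, 3.54 and 2.83 CPM in the Ythdf2 IPs, and 1.54 and 5.01 CPM in the inputs. The inputs were farther apart than the IPs for Mettl14, and no cortex comparison of either gene was called in any of the 3 fits. Without cortex input replicate 1 the log2 fold change of Mettl14 was -1.29 (SE 0.47, adjusted p = 0.151) with anti-Ythdf1.

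Among the adaptor subunits, the RNA-binding proteins Rbm15 and Rbm15b, which bring the complex to sites such as those on Xist, had more CPM in every IP than in either input of its tissue, while their calls depended on the fit. Rbm15b (chromosome 9, 106880918 to 106887428), a transcript of 1 exon, had 121 and 125 CPM in the retina Ythdf1 IPs and 69.5 and 59.0 CPM in the retina Ythdf2 IPs, against 35.5 and 24.0 CPM in the retina inputs. All 4 IPs lay above both inputs. With anti-Ythdf1 the log2 fold change was 2.05 (SE 0.63, adjusted p = 0.0655 with 12 libraries), called without cortex input replicate 1 (SE 0.42, adjusted p = 0.00233) and in the retina alone (1.93, SE 0.31, adjusted p = 0.000364). With anti-Ythdf2 it was 1.11 (SE 0.62, adjusted p = 0.4), not called without cortex input replicate 1 (adjusted p = 0.0832) and called in the retina alone (1.10, SE 0.30, adjusted p = 0.0216). Rbm15b lies wholly within the locus of Manf on the same strand, which had 13.8 and 8.96 CPM in the retina Ythdf1 IPs and 6.42 and 6.36 CPM in the retina Ythdf2 IPs, against 27.8 and 20.9 CPM in the retina inputs. Manf was thus lower where Rbm15b was higher in the retina, and reads of the shared locus are uncertain in origin.

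Rbm15 (chromosome 3, 107325421 to 107333673) had 26.4 and 27.7 CPM in the retina Ythdf1 IPs and 17.4 and 17.9 CPM in the retina Ythdf2 IPs, against 6.43 and 12.2 CPM in the retina inputs. All 4 IPs lay above both inputs. Its log2 fold change with anti-Ythdf1 was 1.53 (SE 0.65, adjusted p = 0.157 with 12 libraries), called without cortex input replicate 1 (SE 0.41, adjusted p = 0.0114) and in the retina alone (1.44, SE 0.32, adjusted p = 0.00378). With anti-Ythdf2 it was 0.92 (SE 0.64, adjusted p = 0.511) and was called in none of the 3 fits.

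In the cortex, Rbm15 had 41.7 and 23.1 CPM in the Ythdf1 IPs, 42.4 and 81.4 CPM in the Ythdf2 IPs, and 4.39 and 18.1 CPM in the inputs. Rbm15b had 69.7 and 30.2 CPM in the Ythdf1 IPs, 69.3 and 116 CPM in the Ythdf2 IPs, and 9.37 and 27.2 CPM in the inputs. For both genes every cortex IP was above both inputs, although the inputs, and the replicate IPs of each antibody, were far apart. With anti-Ythdf2 the log2 fold changes were 2.44 for Rbm15 (SE 0.67, adjusted p = 0.102) and 2.33 for Rbm15b (SE 0.64, adjusted p = 0.102), and without cortex input replicate 1 they were 1.78 (SE 0.53, adjusted p = 0.0526) and 1.76 (SE 0.54, adjusted p = 0.0567). With anti-Ythdf1 they were 1.51 (SE 0.65, adjusted p = 0.292) and 1.44 (SE 0.62, adjusted p = 0.293), and without cortex input replicate 1 they were 0.85 (SE 0.50, adjusted p = 0.403) and 0.88 (SE 0.51, adjusted p = 0.393). The adjusted p of both genes fell under 0.05 with anti-Ythdf2 in DESeq2 (0.00194 for Rbm15 and 0.00138 for Rbm15b).

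Zc3h13 (chromosome 14, 75284373 to 75344426), which anchors the complex in the nucleus, had lower CPM in every retina IP than in either retina input, and the size of the difference rested on 1 input library. It had 1.74 and 1.55 CPM in the retina Ythdf1 IPs and 1.67 and 2.52 CPM in the retina Ythdf2 IPs, against 3.65 and 16.8 CPM in the retina inputs. The inputs were themselves far apart. The log2 fold change was -2.64 with anti-Ythdf1 (SE 0.91, adjusted p = 0.0891) and -2.29 with anti-Ythdf2 (SE 0.90, adjusted p = 0.233) with 12 libraries. Both were called without cortex input replicate 1 (adjusted p = 0.00408 and 0.0174) and in the retina alone (adjusted p = 0.00553 and 0.024). When retina input replicate 2 was left out of the 12 libraries they were -1.15 (adjusted p = 0.538) and -0.80 (adjusted p = 0.761), and when retina input replicate 1 was left out they were -3.35 (adjusted p = 0.0813) and -3.00 (adjusted p = 0.234). In the cortex Zc3h13 had 44.6 and 20.5 CPM in the Ythdf1 IPs, 39.0 and 42.0 CPM in the Ythdf2 IPs, and 12.8 and 95.1 CPM in the inputs, so that all 4 IPs fell between the inputs and neither comparison was called. The cortex log2 fold changes were -0.73 and -0.42 with anti-Ythdf1 and anti-Ythdf2, and without cortex input replicate 1 they were -1.54 (adjusted p = 0.197) and -1.23 (adjusted p = 0.257).

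Virma (chromosome 4, 11485958 to 11550684), the large scaffold that directs methylation toward the 3′ end of mRNA, had 10.6 and 8.69 CPM in the retina Ythdf1 IPs and 7.18 and 7.62 CPM in the retina Ythdf2 IPs, against 2.82 and 6.30 CPM in the retina inputs. All 4 IPs were above both inputs. The log2 fold change with anti-Ythdf1 was 1.08 (SE 0.65, adjusted p = 0.309 with 12 libraries), called without cortex input replicate 1 (SE 0.37, adjusted p = 0.0397) and not in the retina alone (0.98, SE 0.37, adjusted p = 0.058). It was 0.61 without retina input replicate 1 (adjusted p = 0.695) and 1.77 without retina input replicate 2 (adjusted p = 0.275). In the cortex it had 20.3 and 14.7 CPM in the Ythdf1 IPs, 19.4 and 23.9 CPM in the Ythdf2 IPs, and 4.86 and 25.0 CPM in the inputs, with every IP between the inputs. Its cortex log2 fold changes of 0.21 and 0.52 with anti-Ythdf1 and anti-Ythdf2 turned to -0.51 (adjusted p = 0.588) and -0.21 (adjusted p = 0.857) without cortex input replicate 1.

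Within a library, Zc3h13 and Virma moved apart in the retina. There were 0.165 and 0.178 Zc3h13 counts per Virma count in the retina Ythdf1 IPs and 0.232 and 0.331 in the retina Ythdf2 IPs, against 1.30 and 2.67 in the retina inputs. In the cortex the ratio was 2.20 and 1.40 in the Ythdf1 IPs, 2.01 and 1.76 in the Ythdf2 IPs, and 2.63 and 3.81 in the inputs. Zc3h13 counts were below Virma counts in the 4 retina IPs and above them in the other 8 libraries.

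**Figure D2:**
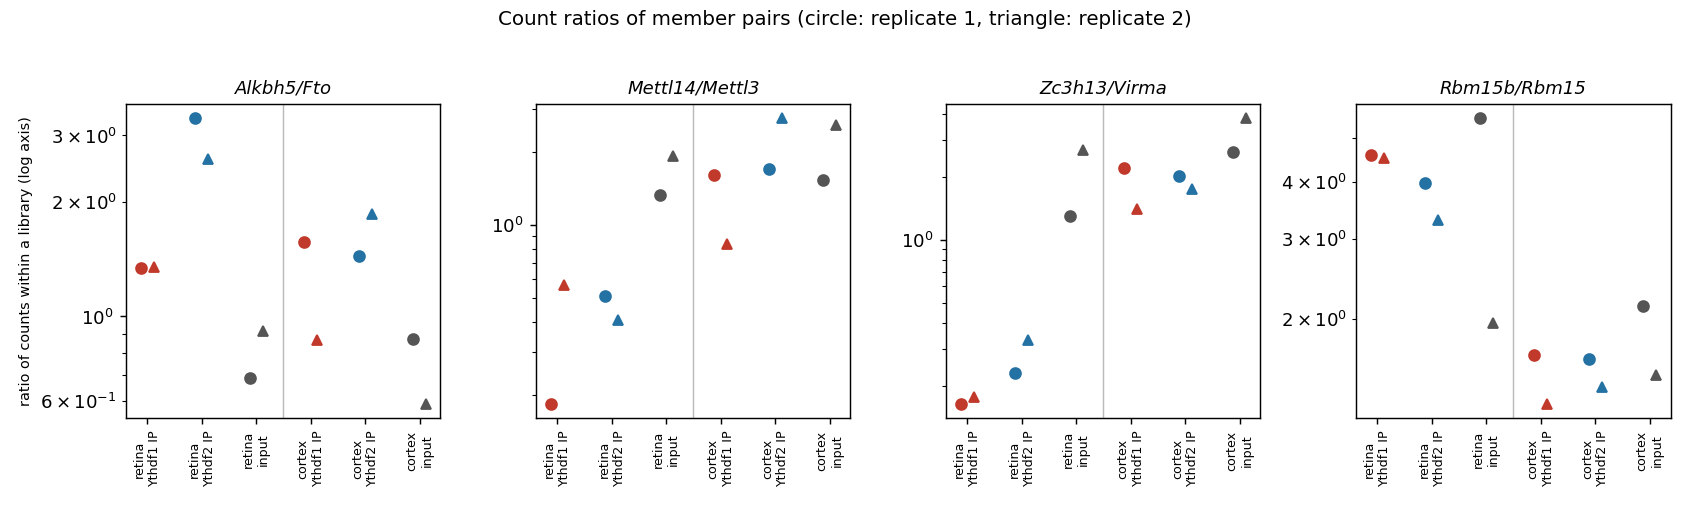
Ratio of the counts of 2 members within each library (log axis), by group, for Alkbh5 over Fto, Mettl14 over Mettl3, Zc3h13 over Virma and Rbm15b over Rbm15; circles are replicate 1 and triangles replicate 2. Mettl14 over Mettl3 is 0.184 to 0.565 in the 4 retina IPs, against 1.33 and 1.93 in the retina inputs, and Zc3h13 over Virma is 0.165 to 0.331, against 1.30 and 2.67.

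Wtap (chromosome 17, 12966796 to 12994169), which holds the catalytic pair in nuclear speckles, had 10.6 and 12.5 CPM in the retina Ythdf1 IPs and 23.3 and 18.2 CPM in the retina Ythdf2 IPs, against 8.80 and 15.3 CPM in the retina inputs. The Ythdf2 IPs were above both inputs, with a log2 change of 0.78 (SE 0.53, adjusted p = 0.491), and the Ythdf1 IPs lay between the inputs. In the cortex it had 12 and 9.99 CPM in the Ythdf1 IPs, 13.8 and 12.3 CPM in the Ythdf2 IPs, and 2.85 and 9.08 CPM in the inputs. Every cortex IP was above both inputs, with log2 fold changes of 0.85 and 1.09 with anti-Ythdf1 and anti-Ythdf2, or 0.28 (adjusted p = 0.799) and 0.52 (adjusted p = 0.504) without cortex input replicate 1. None of its comparisons with input passed the test in the 3 fits.

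Cbll1 (chromosome 12, 31484829 to 31499616), the Hakai subunit, a RING finger protein, showed small differences. It had 4.92 and 4.72 CPM in the retina Ythdf1 IPs and 5.207 and 4.26 CPM in the retina Ythdf2 IPs, against 5.215 and 7.0 CPM in the retina inputs. In the cortex it had 7.13 and 6.19 CPM in the Ythdf1 IPs, 4.49 and 5.04 CPM in the Ythdf2 IPs, and 4.74 and 8.53 CPM in the inputs. Its log2 fold changes over input, -0.34 and -0.37 in the retina and -0.01 and -0.49 in the cortex with anti-Ythdf1 and anti-Ythdf2, were called in none of the 3 fits. Those in the cortex were -0.35 (adjusted p = 0.697) and -0.84 (adjusted p = 0.182) without cortex input replicate 1.

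Counted over the 10 members with anti-Ythdf1 in the retina, 0 were called with all 12 libraries, where 8.8% of all genes were called, and 5 had an unadjusted p under 0.05, as did 26.8% of all genes. Without cortex input replicate 1, 6 were called, where 30.3% of all genes were called: Alkbh5, Rbm15b, Rbm15 and Virma higher, where 15.2% of all genes were higher, and Mettl14 and Zc3h13 lower, where 15.1% were lower. With the 6 retina libraries alone 5 were called, the same without Virma, where 30.5% of genes were called, and DESeq2 called 4 with 12 libraries, where it called 22.2% of the genes to which it gave an adjusted p. With anti-Ythdf2 in the retina, 3 were called without cortex input replicate 1, where 15% of all genes were called: Alkbh5 higher, where 6.54% of all genes were higher, and Zc3h13 and Mettl14 lower, where 8.46% were lower. With the retina libraries alone 3 were called, where 16.8% of genes were called: Alkbh5 and Rbm15b higher and Zc3h13 lower. The median log2 fold change over the 10 members was 0.27 with anti-Ythdf1 and 0.62 with anti-Ythdf2, where that over all genes tested was 0 in both. Leaving out cortex input replicate 2 instead also raised the number of members called in the retina with each antibody, over the 12-library fit. The share of all genes called rose as well. The rise in retina calls was thus not particular to leaving out the library that went against its label. Both antibodies are set against the same 2 input libraries, so these comparisons are not independent. With the replicate block in the 12-library fit 3.65% of all genes were called with anti-Ythdf1 and 0.991% with anti-Ythdf2.

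In the cortex 0 of 10 members were called by edgeR with either antibody, with 12 libraries or without cortex input replicate 1, and 2 had an unadjusted p under 0.05 with each antibody in the 12-library fit, as did 15.6% of all genes with anti-Ythdf1 and 19.3% with anti-Ythdf2. Of all genes, 0.00542% were called with anti-Ythdf1 and 0.0108% with anti-Ythdf2 with 12 libraries, and 4.03% and 8.36% without that library. With the replicate block added to the fit without that library these shares were 1.77% and 3.13%. DESeq2 called 2 members with anti-Ythdf2 and 0 with anti-Ythdf1, where it called 15.2% and 8.83% of the genes to which it gave an adjusted p. When cortex input replicate 2 was left out instead, which leaves as cortex input only the library that went against its label, 4 members were called higher with each antibody (Wtap, Virma, Rbm15 and Rbm15b), where 15.2% of all genes were called higher with anti-Ythdf1 and 17.4% with anti-Ythdf2. The median log2 fold change of the members was 0.35 with anti-Ythdf1 and 0.21 with anti-Ythdf2, and -0.22 and -0.43 without cortex input replicate 1, where the medians over all genes were 0 and 0.05.

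**Figure D3:**
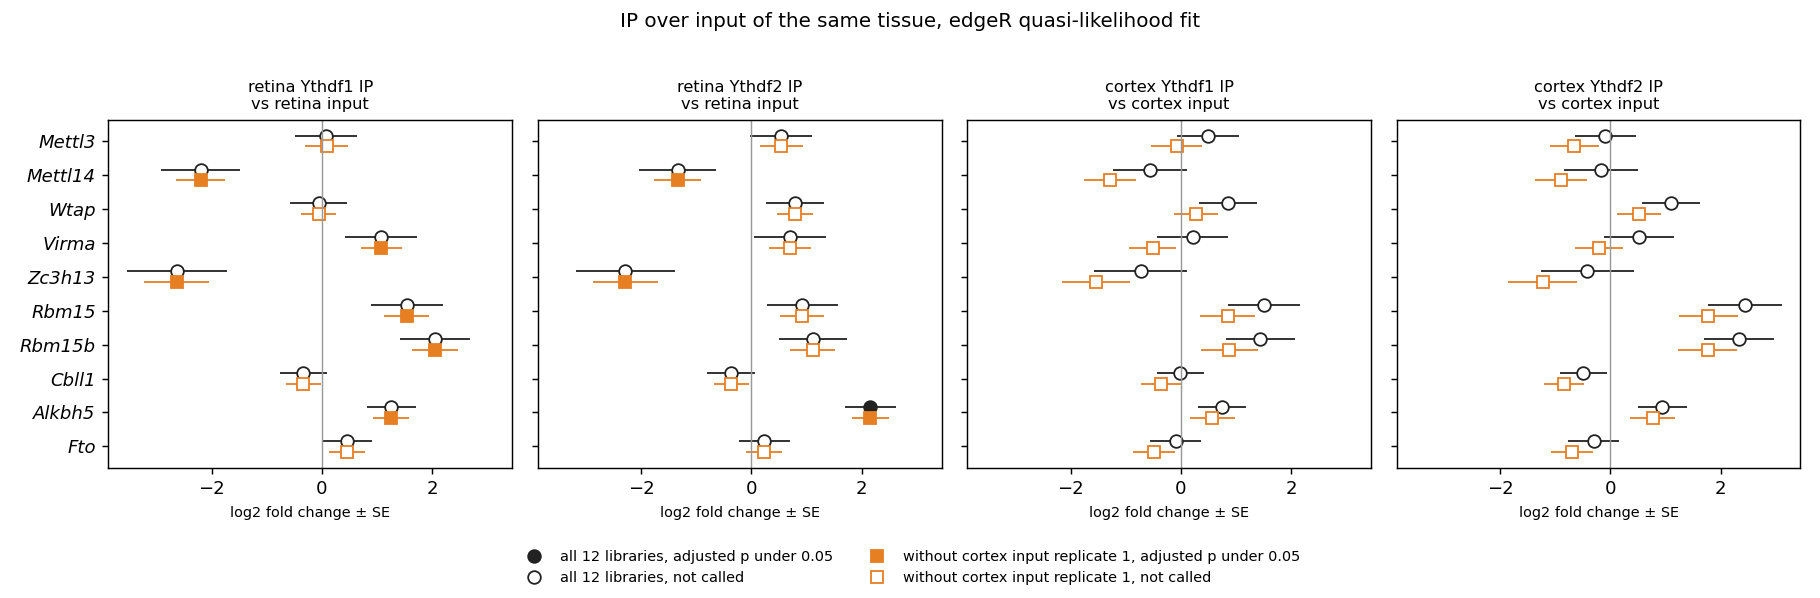
Log2 fold change of each IP over the input of its tissue with its standard error, from the fit of all 12 libraries (circles) and the fit without cortex input replicate 1 (squares); filled symbols are called at an adjusted p under 0.05. Alkbh5 at 2.16 in the retina Ythdf2 IP is the 1 filled circle, and squares are filled for 6 members with anti-Ythdf1 and 3 with anti-Ythdf2 in the retina and for none in the cortex.

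Counts of members whose libraries did not overlap were set beside the same share of all genes. In the retina Ythdf1 IPs 5 members were above both inputs (Virma, Rbm15, Rbm15b, Alkbh5 and Fto), as were 31.4% of all genes, and 3 were below both (Mettl14, Zc3h13 and Cbll1), as were 30.1%. In the retina Ythdf2 IPs 6 were above both inputs (Mettl3, Wtap, Virma, Rbm15, Rbm15b and Alkbh5), as were 26.9% of all genes, and the 3 below both were again Mettl14, Zc3h13 and Cbll1, as were 25.9%. In the cortex, Wtap, Rbm15, Rbm15b and Alkbh5 were above both inputs with each antibody, as were 21.1% of all genes with anti-Ythdf1 and 27% with anti-Ythdf2. There 0 members were below both inputs, as were 14.3% and 17.4% of all genes. Cortex input replicate 2 was also taken alone. The same 4 members were above it with each antibody, as were 33.7% of all genes with anti-Ythdf1 and 40.3% with anti-Ythdf2. With anti-Ythdf1, 5 were below it (Mettl14, Virma, Zc3h13, Cbll1 and Fto), as were 38.9% of all genes, and with anti-Ythdf2 these and Mettl3, 6 in all, were below it, as were 39.7%.

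The antibodies were also compared with each other, which uses no input. In the retina, Alkbh5 was lower in the Ythdf1 IPs (36.9 and 34.3 CPM) than in the Ythdf2 IPs (68.6 and 64.5 CPM), with a log2 difference of -0.90 (SE 0.44, adjusted p = 0.449 with 12 libraries and 0.111 without cortex input replicate 1, where 6.62% of all genes and 0 members were called). In the retina alone it was -1.01 (SE 0.28, adjusted p = 0.0421), the only 1 of the 10 members called there, where 8.54% of genes were called. Rbm15b ran the other way, with a log2 difference of 0.94 (SE 0.61, adjusted p = 0.569; 0.102 in the retina alone), and Wtap ran with Alkbh5 (-0.84, SE 0.53, adjusted p = 0.551; 0.0833 in the retina alone). With 12 libraries 0 members and 0 of all genes were called by edgeR, although 2211 genes (12%) and 0 members had an unadjusted p under 0.05, and DESeq2 called 0 members and 4.64% of the genes to which it gave an adjusted p. In the cortex, Rbm15 (-0.93, SE 0.64, adjusted p = 1) and Rbm15b (-0.89, SE 0.61, adjusted p = 1) had lower values in the Ythdf1 IPs that did not pass the test. No member was called in the cortex in any of the 3 fits, and 0 of all genes were called with 12 libraries, where 739 (4%) had an unadjusted p under 0.05, and 0.688% without cortex input replicate 1.

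The difference between tissues in enrichment over input was tested as retina minus cortex, where tissue and age differ together. No member was called for either antibody with 12 libraries or without cortex input replicate 1, where edgeR called 0.00542% of all genes for anti-Ythdf1 and 0.0325% for anti-Ythdf2 with 12 libraries, and 3.75% and 0.856% without that library. With 12 libraries 0 members had an unadjusted p under 0.05 for either antibody, where 16.6% of all genes did for anti-Ythdf1 and 11.3% for anti-Ythdf2, and DESeq2 called 0 members, where it called 7.65% and 3.11% of the genes to which it gave an adjusted p. When cortex input replicate 2 was left out instead, 3 members were called for anti-Ythdf1 and 4 for anti-Ythdf2, where 27.9% and 23.4% of all genes were called. The fit without cortex input replicate 1 holds a single cortex input, assumed to vary like the other groups. Virma had a difference of 0.87 with anti-Ythdf1 (SE 0.91, adjusted p = 0.676), or 1.59 without cortex input replicate 1 (SE 0.56, adjusted p = 0.126). Alkbh5 had 1.21 with anti-Ythdf2 (SE 0.62, adjusted p = 0.492), or 1.39 (SE 0.51, adjusted p = 0.208). With 12 libraries or without cortex input replicate 1, the values of Alkbh5 and Mettl14 in the retina are therefore not shown to differ from those in the cortex.

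Before immunoprecipitation, the tissues were set against each other as retina input over cortex input. Zc3h13 had 3.65 and 16.8 CPM in the retina inputs, against 12.8 and 95.1 CPM in the cortex inputs, and Virma had 2.82 and 6.30 CPM, against 4.86 and 25.0 CPM. The ranges overlapped for both genes, with log2 differences of -2.40 for Zc3h13 (SE 0.88, adjusted p = 0.113) and -1.73 for Virma (SE 0.66, adjusted p = 0.124). Without cortex input replicate 1, which leaves a single cortex input assumed to vary like the other groups, these were -3.22 (SE 0.63, adjusted p = 0.00262) and -2.45 (SE 0.42, adjusted p = 0.00122). These 2 were then the members called, where 22% of all genes were called, and with 12 libraries edgeR called 0 members, where 7.52% of all genes were called and 2 members had an unadjusted p under 0.05, as did 26.5% of all genes. DESeq2 called the same 2 with 12 libraries, where it called 20.7% of the genes to which it gave an adjusted p. When cortex input replicate 2 was left out the differences were -0.28 for Zc3h13 (adjusted p = 0.790) and -0.0379 for Virma (adjusted p = 0.999), and 2 other members, Wtap and Rbm15b, were called higher, where 18.4% of all genes were higher. With the replicate block 2.64% of all genes were called with 12 libraries and 12.3% without cortex input replicate 1.

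The order of levels between genes was read from the authors' FPKM, which is per length. In the retina inputs Rbm15b was highest at 3.27 ± 0.71 FPKM (SD, n = 2) and apart from Alkbh5 at 1.79 ± 0.24, and from Alkbh5 down to Virma at 0.47 ± 0.28 each neighbour in the order overlapped the next. In the retina Ythdf1 IPs the order was Rbm15b (13.9 ± 0.40 FPKM), Alkbh5 (4.36 ± 0.21), Rbm15 (2.67 ± 0.11), then Fto and Wtap, which overlapped at 1.49 each, then Virma, Cbll1, Mettl3, Zc3h13 and Mettl14 (0.12 ± 0.07), with the libraries of all other neighbours apart. In the retina Ythdf2 IPs Alkbh5 (9.11 ± 2.19 FPKM) and Rbm15b (8.15 ± 2.53) overlapped at the top, and Zc3h13 (0.26 ± 0.03) and Mettl14 (0.26 ± 0.06) overlapped at the bottom. In the cortex IPs Rbm15b was highest with both antibodies (8.08 ± 6.52 FPKM with anti-Ythdf1 and 35.3 ± 23.8 with anti-Ythdf2) and overlapped the next gene. Protein-coding genes took 10.4% to 38.6% of the counts of the 4 cortex IPs, and FPKM was read only for the order of genes within a group.

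Other genes of the m6A pathway were read from lists of 10 further methyltransferases and genes of S-adenosylmethionine supply, 7 other AlkB family genes and 14 readers, all tested. With 12 libraries the 1 gene called over the 4 comparisons with input was Hnrnpa2b1, a nuclear RNA-binding protein described as a reader, which fell by 3.34 on the log2 scale in the retina Ythdf1 IPs (SE 0.82, adjusted p = 0.031). Without cortex input replicate 1, in the retina Ythdf1 IPs 2 readers were higher and 6 lower, 1 of the methyltransferase list was higher and 3 lower, and 0 of the AlkB genes were called, where 15.2% of all genes were higher and 15.1% lower. Prrc2a, a cytoplasmic reader, was higher by 1.66 (SE 0.36, adjusted p = 0.00335), and Pcif1, which writes m6Am at the cap, by 0.98 (SE 0.30, adjusted p = 0.0215). Of the 6 lower readers, Hnrnpa2b1 (-3.34, SE 0.43, adjusted p = 0.000146) and Hnrnpc (-1.81, SE 0.33, adjusted p = 0.00113) had the smallest p. Mettl5, which methylates 18S ribosomal RNA, was lower by a log2 change of -2.84 (SE 0.73, adjusted p = 0.00947). It had few reads, with 4 and 9 counts in these IPs against 43 and 52 in the inputs. Trmt112, its partner, was lower with a log2 change of -1.66 (SE 0.40, adjusted p = 0.00682).

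With anti-Ythdf2 in the retina, without cortex input replicate 1, 0 readers were higher and 2 lower (Hnrnpa2b1, -1.93, and Hnrnpc, -1.01), Trmt112 (-1.45) was the 1 gene called of the methyltransferase list and Alkbh6 (-1.66) the 1 called of the AlkB list, where 6.54% of all genes were higher and 8.46% lower. In the cortex without that library, Hnrnpa2b1 was lower with both antibodies, at -2.19 with anti-Ythdf1 and -2.07 with anti-Ythdf2, where 4.03% and 8.36% of all genes were called. With anti-Ythdf2 in the cortex, Prrc2a (1.69) and Pcif1 (1.54) were higher and Trmt112 (-1.68) and Hnrnpc (-1.51) lower. With 12 libraries the median log2 fold change in the retina Ythdf1 IPs was -0.16 for the methyltransferase list, -0.68 for the AlkB list and -0.25 for the readers, where that of all genes was 0. In the retina Ythdf2 IPs these medians were 0.29, -0.17 and 0.21, in the same order, where that of all genes was 0. In the cortex they were 0.08, 0.55 and 0.29 with anti-Ythdf1, where that of all genes was 0, and 0.33, 0.70 and 0.09 with anti-Ythdf2, where that of all genes was 0.04.

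The antibody targets were themselves measured as transcripts. Ythdf1 had 21.0 and 22.7 CPM in the retina Ythdf1 IPs, against 12.3 and 10.1 CPM in the retina inputs, a log2 fold change of 0.96 that was not called with 12 libraries (SE 0.43, adjusted p = 0.182) and was called without cortex input replicate 1 (SE 0.30, adjusted p = 0.0245). Ythdf2 had 10.7 and 8.99 CPM in the retina Ythdf2 IPs, against 4.31 and 11.2 CPM in the retina inputs, and overlapped its input (log2 fold change 0.35, SE 0.67, adjusted p = 0.872). These transcript levels do not measure recovery of the proteins.

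Summed markers of other cell types differed between the retina IPs and inputs. The 5 endothelial markers summed to 1258 to 1284 CPM of protein-coding counts in the retina Ythdf1 IPs and 752 to 778 in the retina Ythdf2 IPs, against 268 to 275 in the retina inputs, while Pecam1, a defining marker, was at 0 in 3 of the 4 IPs. The 6 meningeal and pigment cell markers, as a sum, ran the other way. The sum was 47.8 to 49.3 CPM in the retina Ythdf1 IPs and 108 to 111 in the retina Ythdf2 IPs. In the retina inputs it was 288 to 337, with Dcn and Tyrp1 at 0 in both libraries. Tyrp1 was above 0 in retina Ythdf1 IP replicate 1, against the direction of the sum. In the cortex the meningeal and pigment markers were 2305 to 3391 CPM in the Ythdf1 IPs and 283 to 325 in the Ythdf2 IPs, against 1843 in cortex input replicate 2. Their part in the values of the members was not tested.

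For each member, the protein-coding gene with the most similar profile was found over the 11 libraries other than cortex input replicate 1, by the root mean square difference of log2(CPM + 1) after centring, among 5851 genes with a mean of at least 5 CPM. The nearest genes were Nmral1 for Mettl3 (0.14), Lrp12 for Rbm15b (0.14), Shprh for Virma (0.16), Rtf2 for Fto (0.17), Fbxl20 for Wtap (0.17), Gpr173 for Alkbh5 (0.18), Clk2 for Cbll1 (0.19), Zfp790 for Rbm15 (0.21), Ddx50 for Mettl14 (0.24) and Rrbp1 for Zc3h13 (0.41). Within the 10, the nearest pair was Mettl3 and Cbll1 (0.36) and the farthest was Alkbh5 and Zc3h13 (2.51). Of the 10, Zc3h13 had the largest difference from its nearest gene. It was also farther from the candidates as a whole, with a median difference of 1.98, against 0.71 to 1.04 for the other members.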

How the data were processed

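Per the labels' protocols, RIP followed a commercial kit and the libraries were stranded. STAR 2.5, HTSeq and GRCm38 are named per the submitters' processing notes; strand setting, annotation release and filters: not given in the sources used here. The authors deposited whole-number counts per gene and, for the same libraries, FPKM values. Symbols and coordinates came from GENCODE M21 (52403 of 52550 identifiers matched).

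After filterByExpr with a minimum count of 10 and a minimum total of 15, 18458 genes were tested (14199 protein-coding). TMM scaling and a robust edgeR quasi-likelihood fit (R 4.3.3, edgeR 4.0.16, limma 3.58.1) with 1 mean for each of the 6 groups left 6 residual degrees of freedom. Tests were two-sided, adjusted by Benjamini-Hochberg over all genes tested, and called at an adjusted p under 0.05. The SE is the absolute log2 fold change over the root of F. DESeq2 1.42.0, limma on log2(FPKM + 1), other scalings, filters and library sets were alternatives.

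The series design states that each replicate holds input and IP. The main fit did not use this pairing, and the replicate number entered as a block only in alternative fits. The correlations of deviations between groups of the same number were -0.01 to 0.05 in the retina and -0.03 to 0.06 in the cortex. Input RNA was the only background, as no control antibody library is among the samples. The members, gene lists and tests were chosen with earlier results of these data known. All members are named; of each list, the 2 higher and 2 lower genes of smallest p among those called in a comparison are named.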

Additional observations from a re-analysis of the deposited data

How the results depend on the processing

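Of 1095 alternative values of single members, 966 kept their direction and side of the threshold, 58 newly passed it, 14 no longer passed it and 57 reversed direction. These values belong to 50 results: all members in each IP against its input, and selected results of the other comparisons. Of the 50, 19 reversed in at least 1 alternative. The remaining results of the other comparisons were not counted. Among them, Mettl3 between inputs went from 0.08 to -0.48 without cortex input replicate 1. Members called with anti-Ythdf1 in the retina (0) numbered 5 with the retina libraries alone and 4 in DESeq2, where 30.5% and 22.2% of genes were called. They numbered 6 with the replicate block and without cortex input replicate 1, where 27.7% of all genes were called. With no filter they numbered 3, and over the left-out libraries 0 to 6. With anti-Ythdf2 in the retina (1) they numbered 3 with the retina libraries alone, where 16.8% of genes were called. The replicate block gave 0 (0.991% of all genes), and 2 (13.3% of all genes) with that block and without cortex input replicate 1. Members called numbered 0 with library totals, 0 in limma with either pseudocount (1 or 0.1), 2 with no filter and 0 to 3 over the left-out libraries. In the cortex (0) they numbered 2 in DESeq2 and 2 with no filter with anti-Ythdf2, and 0 to 4 with either antibody over the left-out libraries. Between antibodies in the retina alone 1 was called. The tissue differences (0) gave 0 to 3 with anti-Ythdf1 and 0 to 4 with anti-Ythdf2 over the left-out libraries. Between inputs (0) 2 were called in DESeq2, 2 with no filter, 2 with the replicate block and without cortex input replicate 1, and 0 to 2 over the left-out libraries. Counts given here without a share of all genes do not show that the members differ from other genes. The cause was not tested.

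Reversals are listed here for the 50 counted results only. With library totals in place of scaling, the log2 fold changes that reversed were, with anti-Ythdf1 in the cortex, Mettl3 (-0.61), Virma (-0.89) and Wtap (-0.14), and with anti-Ythdf2 in the cortex, Fto (0.0631), Mettl14 (0.0061) and Mettl3 (0.15). With limma on log2(FPKM + 0.1) they were Wtap (0.0064) with anti-Ythdf1 in the retina, Cbll1 (0.22) and Fto (0.11) with anti-Ythdf1 in the cortex, Cbll1 (0.96), Fto (1.09), Mettl14 (1.31), Mettl3 (1.18) and Zc3h13 (1.65) with anti-Ythdf2 in the cortex, and Alkbh5 (-0.0876) for the anti-Ythdf2 tissue difference. With log2(FPKM + 1) they were Mettl3 (-0.0794) and Virma (-0.0194) with anti-Ythdf1 and Cbll1 (0.38), Fto (0.40), Mettl14 (0.38), Mettl3 (0.30) and Zc3h13 (1.04) with anti-Ythdf2, all in the cortex. Mettl3 with anti-Ythdf1 in the retina reversed in the retina alone (-0.0243) and with protein-coding genes only (-0.0078). In the cortex the replicate block reversed Cbll1 (0.0413) with anti-Ythdf1 and Mettl14 (0.0864) and Mettl3 (0.15) with anti-Ythdf2, and that block without cortex input replicate 1 reversed Virma (-0.56 with anti-Ythdf1 and -0.24 with anti-Ythdf2). None of these values was called.

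Sign changes over the left-out libraries are also given for the 50 counted results only. Over the left-out libraries, values that changed sign ran in the retina from -0.16 to 0.29 for Mettl3 and -0.41 to 0.39 for Wtap with anti-Ythdf1, and -0.12 to 0.69 for Fto with anti-Ythdf2. With anti-Ythdf1 in the cortex they ran from -0.0768 to 1.54 for Mettl3, -1.29 to 1.08 for Mettl14, -0.51 to 1.78 for Virma, -1.54 to 1.29 for Zc3h13, -0.35 to 0.42 for Cbll1 and -0.49 to 0.40 for Fto. With anti-Ythdf2 in the cortex they ran from -0.65 to 1.04 for Mettl3, -0.90 to 1.55 for Mettl14, -0.21 to 2.16 for Virma, -1.23 to 1.66 for Zc3h13, -0.84 to 0.0092 for Cbll1 and -0.70 to 0.26 for Fto. The tissue difference of Virma with anti-Ythdf1 ran from -0.90 to 1.59, and Mettl14 between inputs from -1.11 to 1.39. The replicate block changed no member call in the 12-library fit other than that of Alkbh5 with anti-Ythdf2 in the retina, and none without cortex input replicate 1 other than that of Mettl14 in the same comparison. The lowest count of a member in a library was 13, of Mettl3 in cortex input replicate 1.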
